A study of Mus musculus with 7 samples.

Results

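The ER stress and integrated stress response was described here through 10 genes, Atf4, Asns, Chac1, Trib3, Sesn2, Ddit3, Ppp1r15a, Atf3, Hspa5 and Xbp1, chosen by symbol from the 26607 genes listed in the files. All 10 were listed, and all had a mean of at least 1 CPM. RNA-seq libraries came from C2C12 myotubes, which are muscle cells that form when myoblasts of this mouse line fuse in low serum. The control group had 3 libraries, numbered 1, 3 and 4, from myotubes without treatment, and the EPS group had 4 libraries, numbered 1 to 4, from myotubes that received electrical pulse stimulation (EPS) for a day and then rested for an hour. Both groups were the same line grown in the same media, with no nerve, blood supply or other organ in the culture. Whether the libraries of a group came from separate cultures is not stated, so the p-values measure the spread between these libraries, which may be technical.

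When unfolded proteins collect in the endoplasmic reticulum (ER), the sensor PERK phosphorylates the translation factor eIF2alpha, and other eIF2alpha kinases do the same when amino acids or heme are short. General translation then drops while the mRNA of Atf4 is translated more, and the ATF4 protein turns on genes for amino acid supply, redox balance and feedback. The other ER sensors are IRE1, which splices the Xbp1 mRNA, and ATF6, and together they raise the chaperones and degradation factors of the ER. In muscle, contraction is known to engage parts of this network. Gene-level CPM measure mRNA, so they show neither eIF2alpha phosphorylation, nor translation of Atf4, nor splicing of Xbp1.

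Values are CPM, the reads of a gene scaled to the total of its library, and differences are log2 fold changes of log2(CPM + 1), EPS minus control, from limma. A gene was counted as called when it changed over 2-fold with an unadjusted P below 0.01. Recovered reads per library were 16616917 to 22120641, and the detection floor of 3 reads was worth 0.136 to 0.181 CPM, which covers counting error only. The lowest count among the 10 genes was 44 reads, of Atf3 in control replicate 4. That library stood apart, with only 359 genes at 1 to 5 reads, where each other library had 2670 to 3181. Myotube markers were abundant, with summed levels of 7270 to 9333 CPM in the control and 5730 to 7915 CPM in the EPS group over 8 genes. Macrophage markers, which should be absent, summed to at most 2.87 CPM over 5 genes, with Adgre1 at 0 reads and Ptprc at no more than 1 read in each library. Csf1r, at 0 to 0.181 CPM in the control and 0.228 to 0.690 CPM in the EPS group, was above every control library in all 4 EPS libraries, where 7.76% of all genes were. Cd68, at 0.525 to 1.08 and 0.838 to 2.07 CPM, had a higher mean in the EPS group. Lyz2, at 0.175 to 0.904 and 0.0974 to 0.233 CPM, had a lower one, and the groups of both genes overlapped. The sums of the myotube list are carried by its most abundant genes, and gene by gene 7 of the 8 had a negative log2 fold change, with a median of -0.53. In limma 0 of the 8 were called, beside 1.41% of all genes, and 2 were lower at an unadjusted P under 0.05 (3.21% of all genes), Mymx and Actn2. Actn2 was at 99.4, 48.8 and 78.7 CPM in the control and at 33.5, 30.4, 48.1 and 34.4 CPM in the EPS libraries, with no overlap. Both edgeR and DESeq2 called 3 lower (Myog, Mymx and Actn2), beside 1.57% and 1.40% of all genes. Myog was at 473, 565 and 1794 CPM in the control, highest in control replicate 4, and at 281, 605, 406 and 278 CPM in the EPS libraries. Mymx was at 42.9 to 76.6 CPM in the control and 20.0 to 64.3 CPM in the EPS group, and the groups of Myog and Mymx overlapped. The summed level of 6 markers of cycling or undifferentiated myoblasts was 218 to 313 CPM in the control and 333 to 925 CPM in the EPS group, highest in EPS replicate 4, and 4 of them (Mki67, Top2a, Ccnb1 and Cdk1) were higher at an unadjusted P under 0.05 in limma, beside 8.40% of all genes. Both edgeR and DESeq2 called 2 higher, Mki67 and Ccnb1, beside 1.72% and 1.66% of all genes. Mki67 had an adjusted p under 0.05 in both, where 1.51% and 3.39% of all genes did. The 4 genes higher in limma are proliferation genes and carry the sum. The myoblast marker Pax7 was at 16.3 to 28.1 CPM in the control and 15.3 to 22.2 CPM in the EPS group. Myf5 was at 4.78 to 8.37 and 4.38 to 11.7 CPM, and both markers overlapped between the groups. In EPS replicate 4 Pax7 was lowest, while Myf5, at 7.12 CPM, was inside its control range. In bulk RNA, a change in the mix of cells and a change within cells cannot be told apart. The part of the myotube and proliferation markers in the results for the 10 genes was not tested.

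The most even pattern among the 10 genes was a lower level in all 4 EPS libraries. Atf4, Asns, Chac1 and Hspa5 lay below every control library, or 4 of 10 genes, where 2.85% of the 19144 genes tested did so. No gene of the 10 lay above every control library in all 4 EPS libraries, where 7.76% of the genes tested did. Of the 10 genes, 1 (Chac1) was called lower and 0 were called higher in limma, against 0.439% called lower, 0.966% called higher and 1.41% called either way of all genes tested. None of the 10 had a Benjamini-Hochberg adjusted p under 0.05 in limma, where 0.141% of all genes tested did, and 5 had an unadjusted P under 0.05, of which 4 were lower (Atf4, Asns, Chac1 and Hspa5) and 1 higher (Ppp1r15a), against 3.21% lower and 8.40% higher of all genes tested. On reads recovered from the CPM, edgeR gave 2 genes with an adjusted p under 0.05, Chac1 and Asns, and DESeq2 gave 3, with Hspa5 added. These tools pass more genes than limma, with 1.51% of all genes under that threshold in edgeR and 3.39% in DESeq2. The median difference of the 10 genes was -0.43, beside 0.041 over all genes tested and 0.10 over the 12256 genes with a mean of at least 1 CPM. That upward shift of 0.10 depends on scaling, since quantile normalization put it at 0.0052 and median-of-ratios scaling at -0.0048, and the same number of the 10 genes, 4, lay below every control library on both of these scales.

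**Figure D1:**
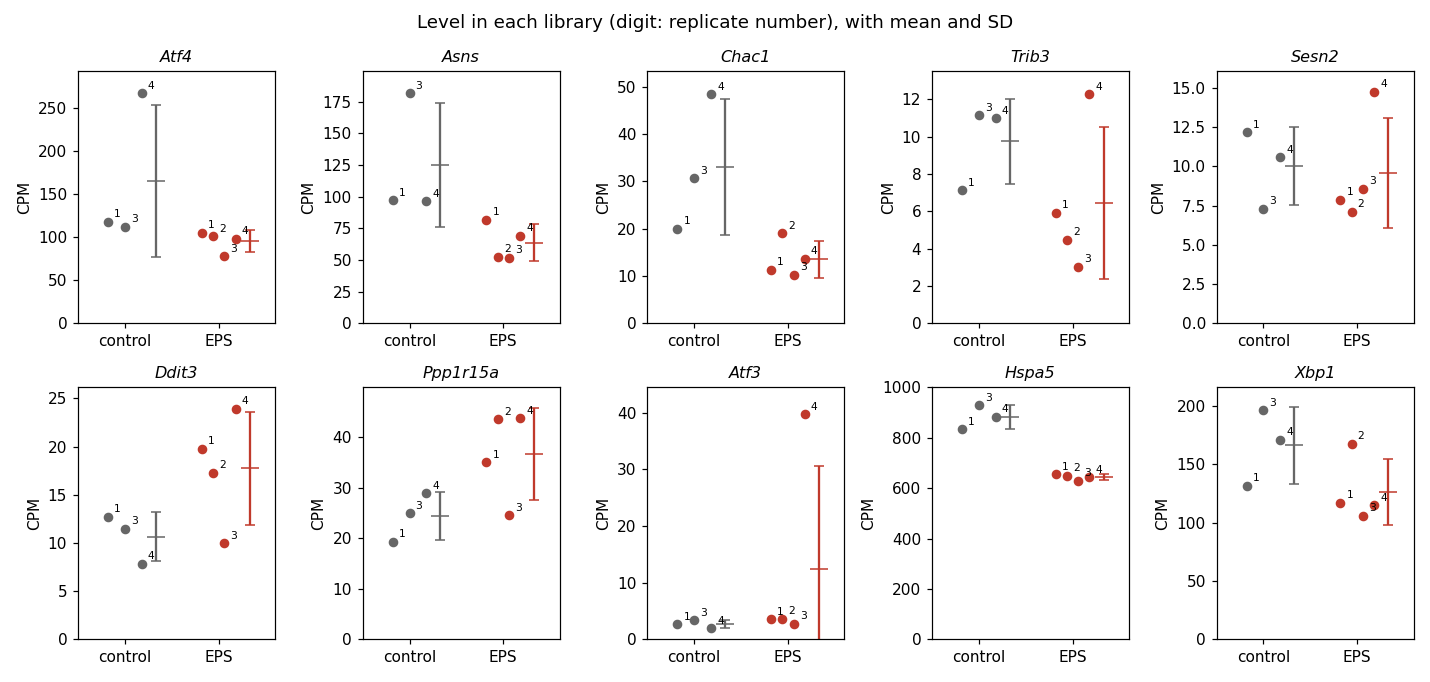
CPM of each of the 10 genes in the 3 control and the 4 EPS libraries, 1 point for each library with its replicate number, and the mean with its SD beside the points. Atf4, Asns, Chac1 and Hspa5 lie lower in every EPS library than in any control library, and Atf3 is near the control level except in EPS replicate 4, where the SD bar of the group reaches below the axis.

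Promoter windows from RefSeq on GRCm38.p6, from 250 bases before to 50 bases after the annotated start, were found by symbol for all 10 genes. Each was searched on both strands for the core of the C/EBP-ATF response element (CARE, TGATGNAA), through which ATF4 acts, the cAMP response element (CRE, TGACGTCA), the ER stress response element (ERSE, CCAAT and CCACG with 9 bases of any kind between them), its second form (ERSE-II, ATTGG and CCACG with 1 base between them) and the core of the unfolded protein response element (UPRE, TGACGTGG). The windows of 3 genes that were lower in all EPS libraries and held a match, and that of Ppp1r15a, which was higher in 3 of them, are printed 5′ to 3′ on the strand of the gene, with the match in capitals.
Hspa5, chr2:34771840-34772139, plus strand, with 1 ERSE: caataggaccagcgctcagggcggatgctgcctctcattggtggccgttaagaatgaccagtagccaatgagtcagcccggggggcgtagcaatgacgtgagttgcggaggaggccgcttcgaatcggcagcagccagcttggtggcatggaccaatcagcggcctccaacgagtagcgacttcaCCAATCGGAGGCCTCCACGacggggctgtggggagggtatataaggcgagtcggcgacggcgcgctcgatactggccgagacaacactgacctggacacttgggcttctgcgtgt
Chac1, chr2:119350992-119351291, plus strand, with 1 CARE on the opposite strand: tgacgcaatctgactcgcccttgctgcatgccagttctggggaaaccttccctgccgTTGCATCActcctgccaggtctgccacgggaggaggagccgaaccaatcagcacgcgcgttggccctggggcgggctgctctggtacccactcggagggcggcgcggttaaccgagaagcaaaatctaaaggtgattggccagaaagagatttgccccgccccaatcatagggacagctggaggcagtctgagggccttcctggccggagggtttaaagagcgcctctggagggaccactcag
Asns, chr6:7693160-7693459, minus strand, with 1 CARE: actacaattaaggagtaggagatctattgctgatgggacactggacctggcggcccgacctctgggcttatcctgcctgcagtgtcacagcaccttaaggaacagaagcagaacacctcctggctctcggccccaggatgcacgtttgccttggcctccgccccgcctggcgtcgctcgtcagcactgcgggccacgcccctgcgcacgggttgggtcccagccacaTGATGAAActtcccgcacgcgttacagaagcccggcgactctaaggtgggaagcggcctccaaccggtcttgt
Ppp1r15a, chr7:45526219-45526518, minus strand, with 1 CRE, which reads the same on both strands: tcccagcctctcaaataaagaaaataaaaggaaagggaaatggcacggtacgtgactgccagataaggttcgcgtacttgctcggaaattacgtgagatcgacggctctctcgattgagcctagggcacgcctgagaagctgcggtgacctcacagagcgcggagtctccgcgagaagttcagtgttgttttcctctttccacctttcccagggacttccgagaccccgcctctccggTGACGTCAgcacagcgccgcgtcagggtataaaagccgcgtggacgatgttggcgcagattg
The ERSE of Hspa5 spanned -65 to -47 from the annotated start, the CARE of Chac1 -193 to -186, the CARE of Asns -23 to -16 and the CRE of Ppp1r15a -12 to -5. CARE was also matched in the windows of Atf3 and Trib3, so 4 of the 10 genes held it, beside 3.97% of all 32851 windows. ERSE was in 1 of the 10 and in 0.119% of all windows, and CRE in 1 of the 10 and in 1.79% of all windows. ERSE-II and UPRE were in none of the 10, and were held by 0.0365% and 0.676% of all windows. These letters were not found in the windows of Atf4, Ddit3, Sesn2 and Xbp1, which says nothing about sites outside them or with other letters. The 10 genes were chosen as genes of this response, so how many of them hold its elements is no result about EPS.

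The first group is the branch of ATF4 and its targets for amino acid and redox balance. Atf4 (ENSMUSG00000042406.8, chromosome 15 of GRCm38, 80255184 to 80257541), the central transcription factor of the response, was at 118, 112 and 267 CPM in control replicates 1, 3 and 4, and at 105, 101, 77.6 and 97.9 CPM in EPS replicates 1 to 4. The groups did not overlap, but control replicates 1 and 3 lay close to the EPS libraries, and control replicate 4 was far above both. Control libraries averaged 166 ± 88.2 CPM (SD, n = 3) and EPS libraries 95.5 ± 12.3 CPM (SD, n = 4), and the log2 fold change in limma was -0.68 with an SE of 0.29 (adjusted p = 0.425). Without control replicate 4 it was -0.27.
Asparagine synthetase (Asns, ENSMUSG00000029752.12, chromosome 6, 7675169 to 7693254), which makes asparagine and is a widely used readout of ATF4, was at 97.1, 182 and 96.2 CPM in the control and at 81.6, 52.3, 51.8 and 69.2 CPM in the EPS libraries. Control replicate 3 was the highest, and the EPS library nearest to the control was EPS replicate 1. The log2 fold change of Asns was -0.92 (standard error 0.26, adjusted p = 0.219 from limma), just under 2-fold, and its unadjusted P, 0.00709, passed the P-value threshold. It was called lower in 7 of the 17 alternative settings, with an adjusted p of 0.0302 in edgeR and 0.0098 in DESeq2 on recovered reads.
Chac1 (ENSMUSG00000027313.3, chromosome 2, 119351229 to 119354381) encodes an enzyme that breaks down glutathione and is induced by ATF4 together with other factors of the response. It fell from 20.0, 30.7 and 48.5 CPM in control replicates 1, 3 and 4 to 11.3, 19.0, 10.3 and 13.6 CPM in EPS replicates 1 to 4. The groups did not overlap, although EPS replicate 2 lay just below control replicate 1. Control libraries averaged 33.1 ± 14.4 CPM (SD, n = 3) and EPS libraries 13.6 ± 3.92 CPM (SD, n = 4), and the log2 fold change of -1.17 (standard error 0.32, unadjusted P = 0.00538, adjusted p = 0.198 from limma) was the only one of the 10 that passed both thresholds. The call of Chac1 did not hold when control replicate 3, control replicate 4, EPS replicate 1, EPS replicate 3 or EPS replicate 4 was left out (log2 fold changes of -1.18, -0.86, -1.10, -1.06 and -1.19), and it held without control replicate 1 (-1.48) or EPS replicate 2. On recovered reads the adjusted p was 0.00915 in edgeR and 0.00107 in DESeq2.

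Trib3 (ENSMUSG00000032715.9, chromosome 2, 152337422 to 152344032), a pseudokinase that is induced by ATF4 and CHOP and feeds back on ATF4, was at 7.11, 11.1 and 11.0 CPM in the control and at 5.91, 4.48, 3.01 and 12.3 CPM in the EPS libraries. EPS replicates 1 to 3 were below every control library and EPS replicate 4 was above them all. The log2 fold change in limma was -0.66 with an SE of 0.41 (adjusted p = 0.588), and it was -0.99 without EPS replicate 4 and -0.41 without EPS replicate 3. Sesn2 (ENSMUSG00000028893.8, chromosome 4, 132492032 to 132510501), a sestrin that senses leucine and restrains mTORC1, was at 12.2, 7.28 and 10.6 CPM in the control and at 7.87, 7.11, 8.59 and 14.8 CPM in the EPS libraries. The groups overlapped widely, and here too EPS replicate 4 alone exceeded the control. The log2 fold change of Sesn2 was -0.083 with a 95% interval of -0.77 to 0.60, so neither a rise nor a fall within that interval could be told from no change.

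The second group holds the factors of the later, feedback and cell death phase. Ddit3 (CHOP, ENSMUSG00000025408.15, chromosome 10, 127290774 to 127296288), a C/EBP family factor induced by ATF4, was at 12.7, 11.5 and 7.82 CPM in the control and at 19.8, 17.3, 9.96 and 23.9 CPM in the EPS libraries. It was above every control library in 3 of the 4 EPS libraries, while EPS replicate 3 lay inside the control range. The log2 fold change in limma was 0.65 with an SE of 0.31 (adjusted p = 0.472), with a 95% interval of -0.064 to 1.35. It was between 0.46 and 0.88 with each library left out in turn, and 0.30 without both control replicate 4 and EPS replicate 4. Ddit3 overlaps Mars, the methionyl-tRNA synthetase gene, on the opposite strand, and whether the authors counted by strand is not given in the sources used here. Mars was at 131 to 154 CPM in the control and at 149, 85.3, 123 and 114 CPM in EPS replicates 1 to 4. EPS replicate 1 was inside the control range of Mars, and EPS replicates 2 to 4 were below it. The part of Mars reads in the Ddit3 values was not tested.
Ppp1r15a (GADD34, ENSMUSG00000040435.12, chromosome 7, 45522916 to 45526268) encodes the stress-induced subunit of the phosphatase that removes phosphate from eIF2alpha and restores translation. It was at 19.4, 25.0 and 28.9 CPM in control replicates 1, 3 and 4 and at 35.1, 43.6, 24.6 and 43.8 CPM in EPS replicates 1 to 4. As with Ddit3, EPS replicates 1, 2 and 4 were above every control library and EPS replicate 3 was not. Its log2 fold change in limma was 0.55 with an SE of 0.24 (adjusted p = 0.422), positive in all of the 17 alternative settings, with values from 0.40 to 0.73. Ppp1r15a overlaps Tulp2, which had at most 3 reads in each library.
Atf3 (ENSMUSG00000026628.13, chromosome 1, 191170296 to 191218039), a stress-induced factor of the ATF/CREB family, had 46, 56 and 44 reads in the control libraries and 76, 75, 60 and 748 reads in EPS replicates 1 to 4. EPS replicates 1 and 2, at 3.54 and 3.65 CPM, were just above the highest control library, at 3.37 CPM, and EPS replicate 3 was inside the control range. EPS replicate 4 alone was 14.8 times the control mean. The log2 fold change of Atf3 was 1.05 with a 95% interval of -0.68 to 2.79 (adjusted p = 0.649 from limma), 0.24 without EPS replicate 4, and 0.097 without EPS replicate 4 and control replicate 4. On recovered reads it was 2.11 in edgeR, which called Atf3 higher (unadjusted P = 0.00532, adjusted p = 0.152), and 2.10 in DESeq2, which gave no P-value.

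**Figure D2:**
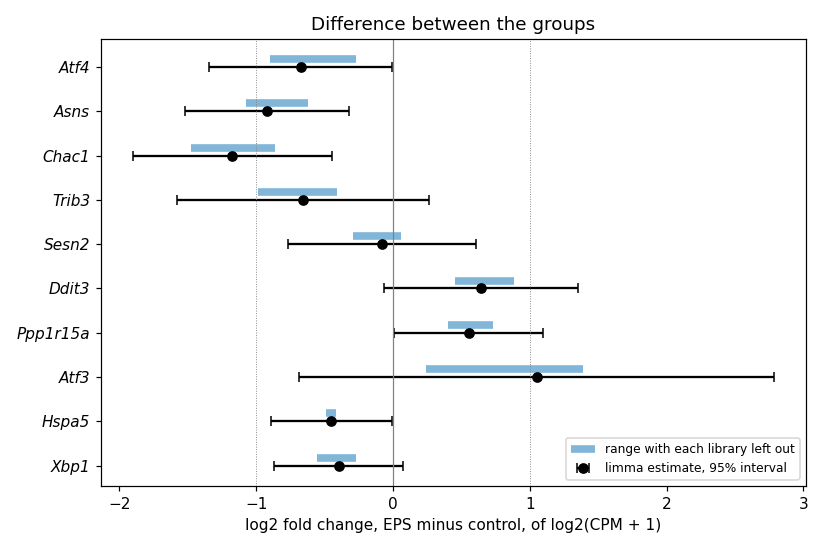
log2 fold change of each of the 10 genes, EPS minus control on the log2(CPM + 1) scale. Points and whiskers are the limma estimate and its 95% interval, and the thick bar is the range with each library left out in turn, which for Atf3 runs from 0.24 to 1.39. Dotted lines mark 2-fold.

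The third group is the ER itself. Hspa5 (BiP, ENSMUSG00000026864.13, chromosome 2, 34771970 to 34777547), the Hsp70 chaperone of the ER lumen that also holds the ER sensors inactive, was at 834, 929.7 and 883 CPM in control replicates 1, 3 and 4 and at 655, 649, 629 and 643 CPM in EPS replicates 1 to 4. Every EPS library lay well below every control library. Control libraries averaged 882 ± 47.8 CPM (SD, n = 3) and EPS libraries 644 ± 11.0 CPM (SD, n = 4), or 0.730 times as much. For Hspa5, as for Atf4, Asns and Chac1, the exact two-sided permutation test of means gave p = 0.0286, the smallest that 35 splits allow. In limma, which sets the spread of a gene partly from that of genes at a similar level, the log2 fold change was -0.45 (standard error 0.19, unadjusted P = 0.0455, adjusted p = 0.418). Leaving out single libraries moved it only between -0.49 and -0.41, the narrowest such range of the 10 genes. The adjusted p of Hspa5 was 0.0201 in DESeq2 and 0.325 in edgeR, so its side of the threshold depended on the tool.
Xbp1 (ENSMUSG00000020484.18, chromosome 11, 5520659 to 5525893), whose mRNA is the substrate of IRE1, was at 131, 196 and 171 CPM in the control and at 117, 168, 106 and 115 CPM in the EPS libraries. EPS replicates 1, 3 and 4 were below every control library and EPS replicate 2 was inside the control range. The log2 fold change was -0.40 with a 95% interval of -0.87 to 0.071 (adjusted p = 0.506 from limma). Spliced and unspliced Xbp1 are counted together in these values.

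Levels of different genes were compared only per kb of the longest coding transcript in GENCODE M21, since longer transcripts yield more reads. In the control, the order from the highest level was Hspa5 at 240.3 CPM per kb, then Atf4, Xbp1 and Asns at 96.0, 78.0 and 62.0, then Chac1, Ddit3 and Ppp1r15a at 20.2, 12.0 and 8.69, and Trib3, Sesn2 and Atf3 at 4.81, 2.88 and 1.35 CPM per kb. The SDs of Atf4, Xbp1 and Asns were 51.1, 15.4 and 24.3 CPM per kb, and the gap between any pair of them was smaller than the larger SD of the pair. In the EPS group Ddit3 and Ppp1r15a, at 19.9 and 13.1 CPM per kb, had higher means than Chac1, at 8.28 CPM per kb. In the control the mean of Chac1 was the highest of the 3, but its gap to Ddit3 was within its SD of 8.78 CPM per kb.

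The EPS libraries differed in which genes left the control range. In EPS replicates 1 and 2, 3 genes (Atf3, Ddit3 and Ppp1r15a) were above all control libraries and 6 were below them. EPS replicate 3 had 0 genes above the control range and 6 below it, with Atf3, Ddit3, Ppp1r15a and Sesn2 inside. EPS replicate 4 had 5 genes above, the same 3 with Trib3 and Sesn2, and 5 below. Atf4, Asns, Chac1 and Hspa5 were below the control range in each of the 4. A single library can leave the range of 3 control libraries without any change. No share over all genes is given beside these counts for each library, so they are descriptions only. Across the 7 libraries, Pearson's r of log2(CPM + 1) was 0.87 between Hspa5 and Asns, 0.86 between Hspa5 and Chac1 and 0.86 between Atf4 and Chac1. For Ddit3 it was 0.72 with Atf3 and 0.69 with Ppp1r15a, and -0.53 with Atf4. These r values over 7 libraries contain the difference between the groups and are descriptions.

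**Figure D3:**
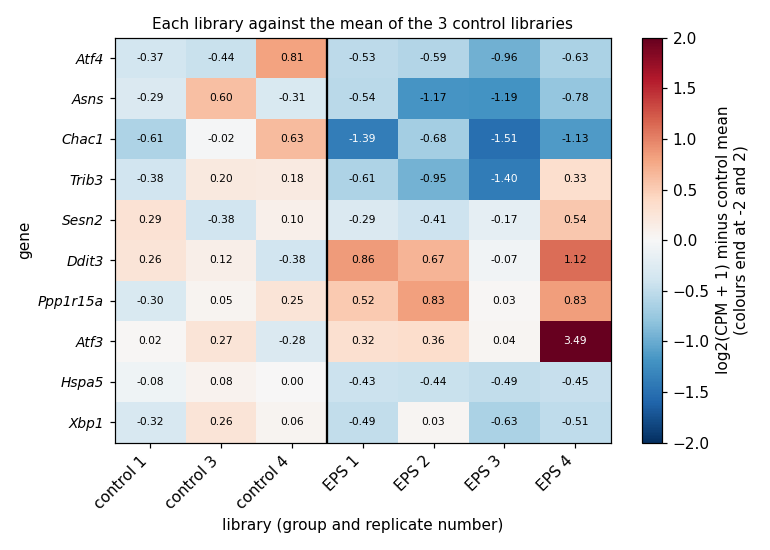
Difference of log2(CPM + 1) of each library from the mean of the 3 control libraries, for the 10 genes in rows and the 7 libraries in columns. Atf4, Asns, Chac1 and Hspa5 are below 0 in all 4 EPS libraries, EPS replicate 3 has no value above 0.041, and Atf3 reaches 3.49 in EPS replicate 4.

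The wider pathway was read from lists of known parts. Among 9 genes for the eIF2alpha kinases and ER sensors and their proteases, 0 were called in limma, and 0 had an unadjusted P under 0.05 in limma, edgeR or DESeq2. Of all genes, 1.41% were called in limma. At that P-value 8.40% were higher and 3.21% lower in limma, and 11.6% passed in edgeR and 10.6% in DESeq2. For 9 genes, counts of 0 are near these shares. The log2 fold changes of the 9 genes lay between -0.28 and 0.51, with a median of -0.072. Eif2ak3 (PERK) was at 17.8 to 40.0 CPM in the control and 22.5 to 27.7 CPM in the EPS group, Ern1 (IRE1) at 22.9 to 31.6 and 21.7 to 26.3 CPM, and Atf6 at 217 to 288 and 192 to 272 CPM, and in all 3 the groups overlapped. These sensors are regulated mainly as proteins. Among 9 genes for eIF2, eIF2B and the constitutive phosphatase subunit Ppp1r15b, 0 were called and 0 had an unadjusted P under 0.05 with any of the 3 tools. Beside 1.41% of all genes called in limma, and 11.6% and 10.6% at that P-value in edgeR and DESeq2, 0 of these 9 genes is also near the background. Eif2b4, a subunit of the exchange factor eIF2B, was the only one whose groups did not overlap, where 7.76% of all genes tested lay above every control library, so this count is near the background. It was at 38.0 to 39.8 CPM in the control and 41.5 to 53.3 CPM in the EPS group (log2 fold change 0.26, adjusted p = 0.554 from limma).

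Among 32 further targets of ATF4 and CHOP, 24 had a negative and 8 a positive log2 fold change, with a median of -0.24. In limma 1 was called higher (0.966% of all genes), 0 were called lower (0.439%), and 0 had an adjusted p under 0.05 (0.141%). There were 2 higher and 6 lower genes with an unadjusted P under 0.05, beside 8.40% and 3.21% of all genes, so the higher count was no more than the background. With edgeR 3 and with DESeq2 5 had an adjusted p under 0.05, beside 1.51% and 3.39% of all genes. Both count tests called 2 higher, Gdf15 and Vldlr, beside 1.72% of all genes in edgeR and 1.66% in DESeq2, and DESeq2 called 1 lower, Fgf21, beside 1.40%. Fgf21, a secreted metabolic hormone, was at 20.5, 38.9 and 17.7 CPM in the control and at 13.3, 21.6, 7.72 and 13.3 CPM in the EPS libraries, so the groups overlapped. Its log2 fold change was -0.83 in limma, and -0.50 without control replicate 3. All 4 EPS libraries were below every control library in 6 of the 32 and above in 2, where 2.85% and 7.76% of all genes tested were. The gene called higher was Gdf15, a secreted stress cytokine, at 1.05, 2.17 and 1.67 CPM in the control and 3.72, 6.33, 4.11 and 12.7 CPM in the EPS libraries, highest in EPS replicate 4. Its log2 fold change was 1.44 (adjusted p = 0.196 from limma), and it was 1.12 and still called without EPS replicate 4, while the call was lost without control replicate 1, control replicate 4 or EPS replicate 2, where the log2 fold changes were 1.27, 1.46 and 1.42. The call was also lost when genes at 0 in every library were kept (no filter, 1.44) and with the replicate number as a block (1.42). On recovered reads the log2 fold change of Gdf15 was 1.93 in both edgeR (adjusted p = 0.021) and DESeq2 (adjusted p = 0.00234). Vldlr, a lipoprotein receptor, was at 13.9 to 16.8 CPM in the control and at 28.7, 53.5, 54.3 and 18.4 CPM in EPS replicates 1 to 4, lowest there in EPS replicate 4. Its log2 fold change was 1.16 in limma (adjusted p = 0.246), with adjusted p-values of 0.0414 in edgeR and 0.0206 in DESeq2.
Slc7a5, the light chain of the LAT1 transporter for large neutral amino acids, was at 178, 128 and 172 CPM in the control and at 93.9, 65.7, 117 and 72.8 CPM in the EPS libraries, which limma put at a log2 fold change of -0.88 (adjusted p = 0.171), with adjusted p-values of 0.0492 in edgeR and 0.0182 in DESeq2. Cars, the cysteinyl-tRNA synthetase gene, was at 73.8, 58.1 and 91.3 CPM in the control and at 47.8, 35.5, 44.1 and 48.1 CPM in the EPS libraries, which limma put at a log2 fold change of -0.73 (adjusted p = 0.177), with adjusted p-values of 0.0553 in edgeR and 0.0157 in DESeq2. The other 4 genes below the control in every EPS library, named after their values were seen, were Mthfd2 of mitochondrial one-carbon metabolism, Aldh18a1 of proline synthesis, the cationic amino acid transporter Slc7a1 and the alanine aminotransferase Gpt2, with log2 fold changes of -0.66, -0.58, -0.53 and -0.41. Psat1, of serine synthesis, and Wars, the tryptophanyl-tRNA synthetase gene, were near 0, with log2 fold changes of 0.028 and 0.023. Ddit4, Slc38a2 and Eif4ebp1 had positive log2 fold changes of 0.53, 0.31 and 0.30, with overlapping groups. With 24 negative and 8 positive values, the direction was not shared by the whole list. With control replicate 4 left out, an alternative chosen after the data were seen, 8 of the 32 were below and 4 above every remaining control library, beside 6.55% and 13.2% of all genes. Without EPS replicate 4 these counts were 7 and 2, beside 3.44% and 9.76%, and without both libraries 10 and 4, beside 7.74% and 15.9%. In the RefSeq windows, CARE was held by 8 of the 25 genes of this list that had a window, beside 3.97% of all windows. The list was chosen as targets of ATF4 and CHOP, so this count is no result about EPS.

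**Figure D4:**
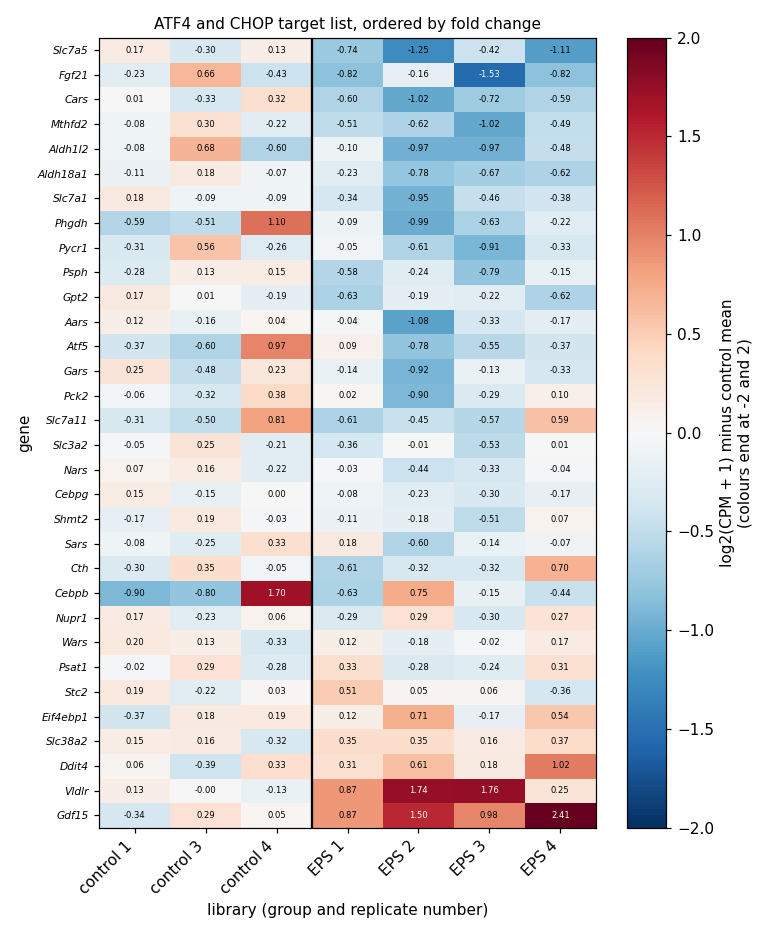
Difference of log2(CPM + 1) of each library from the control mean for the 32 genes of the list of ATF4 and CHOP targets, ordered by log2 fold change from the lowest. Slc7a5, Cars, Mthfd2, Aldh18a1, Slc7a1 and Gpt2 are lower in all 4 EPS libraries than in any control library, Gdf15 and Vldlr are higher, and control replicate 4 departs from the other control libraries in Cebpb, Phgdh, Atf5 and Slc7a11.

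The list of ER chaperones and degradation factors held no gene called in limma, where 1.41% of all genes tested were called, so this count is near the background. Among 26 genes for folding, oxidation, translocation and ER-associated degradation, 20 had a negative and 6 a positive log2 fold change, from -0.49 to 0.70 with a median of -0.16. In limma 1 of the 26 was lower at an unadjusted P under 0.05, beside 3.21% of all genes. None had an adjusted p under 0.05 in limma, edgeR or DESeq2, beside 0.141%, 1.51% and 3.39% of all genes. In each of the count tests 4 had an unadjusted P under 0.05, beside 11.6% of all genes in edgeR and 10.6% in DESeq2. Pdia4, a protein disulfide isomerase, was the only one of the 26 below the control in every EPS library, where 2.85% of all genes tested were, so this count is near the background. It was at 76.0 to 91.4 CPM in the control and 58.7 to 74.7 CPM in the EPS group (log2 fold change -0.27, adjusted p = 0.522 from limma). Hyou1, the gene with the unadjusted P under 0.05, named after its values were seen, is a chaperone that works with BiP, and was at 163, 120.2 and 104 CPM in the control and 86.6, 81.5, 119 and 77.5 CPM in the EPS libraries. Hsp90b1 (GRP94), which is often induced together with Hspa5, was at 484 to 632 CPM and 441 to 527 CPM, and its groups overlapped. Without control replicate 4 the list had 5 genes below and 1 above every control library, beside 6.55% and 13.2% of all genes. Without EPS replicate 4 it had 2 and 0, beside 3.44% and 9.76%, and without both it had 8 and 2, beside 7.74% and 15.9%. ERSE was held by the windows of 8 of the 19 genes of this list that had one, beside 0.119% of all windows. The list was chosen as known ER factors, so this count is no result about EPS.

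Among 5 apoptosis genes, 0 were called in limma and 0 had an unadjusted P under 0.05 there. Of all genes 1.41% were called, and 8.40% were higher and 3.21% lower at that P-value, so these counts are near the background. In edgeR and DESeq2 1 was called lower, Bbc3 (PUMA), which CHOP can induce, beside 1.57% and 1.40% of all genes called lower. Bbc3 was at 5.31, 7.34 and 15.6 CPM in the control, highest in control replicate 4, and at 2.79, 6.67, 3.84 and 4.78 CPM in the EPS libraries. Among 9 relatives of the 10 genes, 0 were called in limma, beside 1.41% of all genes. There 1 was higher at an unadjusted P under 0.05, beside 8.40% of all genes. With edgeR 2 and with DESeq2 1 were called higher, beside 1.72% and 1.66% of all genes. The 1 gene was Hspa1b, a heat-inducible cytosolic Hsp70, at 18.8, 26.5 and 21.3 CPM in the control and at 27.1, 49.4, 29.7 and 115 CPM in the EPS libraries, with EPS replicate 4 again highest (log2 fold change 1.04, adjusted p = 0.416 from limma, and 0.61 without that library). Its near-identical copy Hspa1a, at 2.21 to 5.12 CPM in the control, was at 31.9 CPM in EPS replicate 4 and at 4.75 to 8.28 CPM in the other EPS libraries. Reads of the pair could have been split between them.

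**Figure D5:**
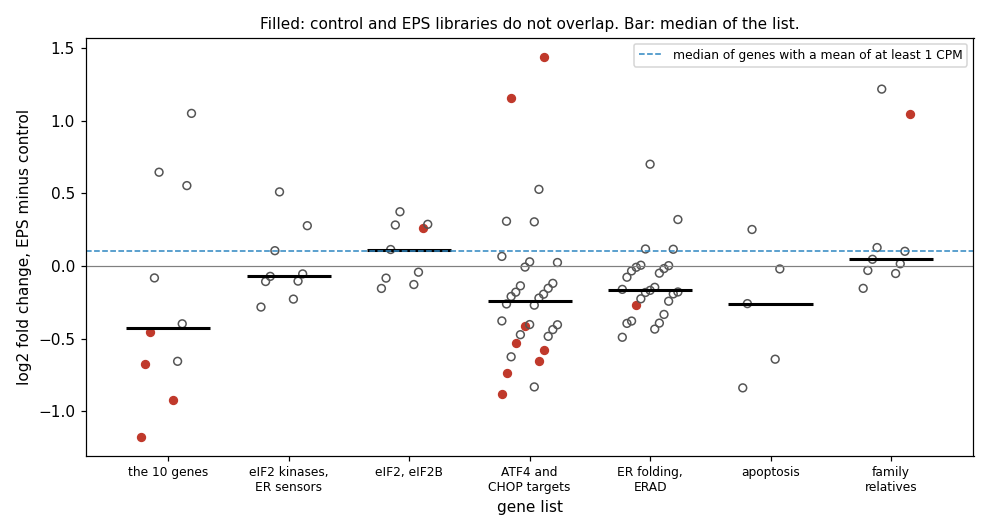
log2 fold change of every gene in the 10-gene set and in the 6 wider lists, 1 point for each gene, with the median of each list as a bar. Filled points are genes whose control and EPS libraries do not overlap, and the dashed line is the median of the genes with a mean of at least 1 CPM, at 0.10. The medians are -0.43 for the 10 genes, -0.24 for the targets of ATF4 and CHOP and -0.16 for the ER folding genes.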

How the data were processed

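Poly(A) RNA of C2C12 myotubes went into strand-specific libraries that were read from both ends. The submitters' processing notes name STAR 2.5.4b and GRCm38. CPM on a linear scale were deposited by the authors, 1 value for each gene in each library. Which program counted reads, on which annotation, whether by strand and how multi-mapped reads were treated is not given in the sources used here, so values of overlapping genes and near-identical copies are uncertain. Dividing by the worth of 1 read gave a whole number within 0.01 for 100% of values, so whole reads were recovered.

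Groups and replicate numbers came from the sample labels. CPM were taken as log2(CPM + 1), which understates the change of low genes, and 19144 genes that were not 0 throughout were tested two-sided with limma 3.58.1 in R 4.3.3 (empirical Bayes, mean-variance trend, 7 libraries, no covariate) with Benjamini-Hochberg adjustment over all of them. Single genes were also compared by an exact permutation test over 35 splits. Alternatives were edgeR 4.0.16 (quasi-likelihood, TMM) and DESeq2 1.42.0 on the recovered reads, a pseudocount of 0.5 or 0.1, only genes that averaged 1 CPM or more, no filter, quantile normalization, median-of-ratios scaling, the replicate number as a block, and leaving out libraries. The tests were tried on simulated reads.

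The members and gene lists were chosen with earlier results of these data known. In the wider lists, called genes were named, then up to 4 with the largest log2 fold change among those whose groups do not overlap, and genes outside this rule are given as examples of their list. Gene positions are from GENCODE M21 on GRCm38, matched by symbol, and promoter windows from RefSeq on GRCm38.p6. Mymk, Mymx and Adgre1 were matched through older symbols.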

Additional observations from a re-analysis of the deposited data

Results flagged for a closer look

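Atf3 in EPS replicate 4, at 39.7 CPM, stood apart from the other 3 EPS libraries, of which the highest was at 3.65 CPM. Its gap to that library was 0.975 of the whole range of the group, above Dixon's 95% critical value for 4 samples. The EPS groups of 11 genes were tested in this way and 1 was beyond the value, while chance alone puts about 1 group in 20 beyond it. EPS replicate 4 was also the highest EPS library for Trib3, Sesn2, Ddit3, Gdf15 and Hspa1b, and for the proliferation genes Mki67, Top2a, Ccnb1 and Cdk1, while the myoblast marker Pax7 was lowest there of all 7 libraries, at 15.3 CPM. The part of proliferating cells in the Atf3 value was not tested.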

How the results depend on the processing

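Of 170 pairs of a gene of the 10 and an alternative setting, 151 kept their direction and their side of the thresholds, 1 had no P-value (Atf3 in DESeq2), 7 lost the call (all of Chac1), 8 gained it (7 of Asns and 1 of Atf3, the latter in edgeR at a log2 fold change of 2.11) and 3 reversed. The reversed values were all of Sesn2, at 0.028 with the replicate block, 0.060 without control replicate 1 and 0.028 without EPS replicate 2, within a leave-one-out range of -0.29 to 0.060.
Among the 10 genes, the number called lower was 1 in the main fit, beside 0.439% of all genes. It was 0 when genes at 0 in every library were kept (no filter), where 57 of all genes were. It was 2 after median-of-ratios scaling, where 120 of all genes were called lower. In edgeR and DESeq2 it was also 2, beside 1.57% and 1.40% of all genes. When an adjusted p under 0.05 was the call it was 0, where 0.141% of all genes passed in either direction. The number called higher, 0 in the main fit, was 1 in edgeR, beside 0.966% and 1.72% of all genes. The number with an adjusted p under 0.05 was 2 in edgeR and 3 in DESeq2, beside 1.51% and 3.39% of all genes. With each library left out in turn, 0 to 2 were called lower, where 57 to 110 of all genes were. In these fits 0 to 3 of the 10 lay above every control library. The 3 (Atf3, Ddit3 and Ppp1r15a) did so without EPS replicate 3, where 12.1% of all genes did. Without control replicate 3 there was 1, where 16.2% did. Below every control library lay 4 to 5, where 3.44% to 6.55% of all genes did.
Over all genes, 185 were called higher, 84 lower and 27 had an adjusted p under 0.05. With a pseudocount of 0.1 these were 445, 156 and 106, in edgeR 329, 300 and 290, and in DESeq2 317, 268 and 497. With no filter 112 were called higher and 10 had an adjusted p under 0.05, with a minimum mean of 1 CPM 121 did, and after quantile normalization 17 did. Without both control replicate 4 and EPS replicate 4, 52 were called lower and 3 had an adjusted p under 0.05. With each library left out in turn, 0 to 27 genes had an adjusted p under 0.05. Of the called genes, 68.8% were higher without rescaling, against 51.6% when libraries were quantile normalized and 52.8% with median-of-ratios scaling. With the replicate block, a fit that rests on 3 pairs, 99 genes were called higher and 0 had an adjusted p under 0.05. Whether the numbers mark pairs is not stated. Deviations of same-numbered libraries had a Pearson r across genes of 0.22, -0.41 and 0.065 for replicates 1, 3 and 4. Libraries with different numbers were not compared in this way, so these values cannot decide it.
The cause of these differences was not tested. With 3 libraries against 4, differences within the 95% limma intervals could not be told from 0 for Atf3 (-0.68 to 2.79), Trib3 (-1.58 to 0.26), Ddit3, Sesn2 and Xbp1.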

Other observations

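For each of the 10 genes, the 5 genes with the most similar pattern were listed by Pearson's r of log2(CPM + 1) over the 7 libraries, among 12255 other genes with a mean of at least 1 CPM. The values are descriptions, since the highest of so many r values over 7 libraries is high in any case. For Hspa5 they were Socs3, Plau, Gdf6, Insig1 and Rgs14, with r from 0.974 to 0.990. Insig1, a sterol-responsive protein of the ER membrane, was at 155, 149 and 139.6 CPM in the control and at 71.0, 71.7, 67.2 and 71.9 CPM in the EPS libraries, and Socs3, a feedback inhibitor of cytokine signalling, was at 40.3, 51.9 and 48.2 CPM and at 27.3, 28.3, 23.5 and 27.3 CPM.
For Ppp1r15a the list was Rps23, Snhg8, Mrpl15, Mrpl17 and Nsmce1, with r from 0.986 to 0.995, of which Rps23, Mrpl15 and Mrpl17 encode ribosomal proteins. Rps23 was at 288, 349 and 434 CPM in the control and at 514, 604, 344 and 616 CPM in the EPS libraries, so that EPS replicate 3 was again the one inside the control range. For Trib3 the first gene was Fos, an immediate early factor, at 6.18, 9.33 and 8.86 CPM in the control and at 4.61, 4.87, 3.84 and 9.35 CPM in the EPS libraries (r = 0.969). For Sesn2 the second was Trib1, a relative of Trib3 (r = 0.957), and the third was Bag3, a cochaperone of Hsp70 (r = 0.916). For Atf3 the list was Rhoa, Prl2c2, Lrdd, Hspa1a and Aurkb, with r from 0.949 to 0.991, each with its highest value in EPS replicate 4.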
